A study of Mus musculus with 24 samples.

Results

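Usp2, Wee1 and Tspan4 are 3 genes whose RNA follows the circadian clock in many mouse tissues. They were followed through all 8 genotype and time groups of an array series on mouse epididymal white fat (eWAT), a depot attached to the epididymis. The members were every probe set that the platform's gene table maps to these symbols, which gave 1 probe set for each of the 3 genes among the 22180 genes with a probe set of their own. All 3 probe sets passed the filter on low signals that left 15526 genes for the tests. The MUT mice carried Syt10-Cre/Cre x Bmal1-flox/-, a genotype described as a functional loss of the clock of the SCN, the suprachiasmatic nucleus that paces the body's clocks. The CON mice carried Syt10-Cre/Cre x Bmal1-+/-, so both groups had Cre on both alleles of Syt10, a gene expressed strongly in SCN neurons, and both had 1 Bmal1 null allele. Mice spent 2 weeks in a light-dark cycle and were then kept in constant darkness, and their eWAT was collected 6 h apart over the second day of darkness, at circadian times (CT) 1, 7, 13 and 19. The labels count CT1 from lights off, by the same hours for both genotypes, so CT is not a phase measured in each mouse. Each group held 3 arrays, 1 per mouse, with 12 MUT and 12 CON arrays in all. The series asks which daily rhythms of gene expression persist in tissues when the SCN clock is disabled.

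In the clock's core loop the activators BMAL1, encoded by Arntl, and CLOCK bind E-box sequences and switch on target genes, among them their own repressors PER and CRY. Output genes are read by the same factors and carry the rhythm into other cell functions. USP2 is a deubiquitinase, an enzyme that removes ubiquitin from other proteins, and PER1 and CRY1 are among its reported substrates. WEE1 is the kinase that holds back mitosis by phosphorylating CDK1, and its gene was described in mouse liver as a direct E-box target of the clock. TSPAN4 is a tetraspanin, a protein that spans the membrane and organises membrane domains, and is used as a marker of migrasomes, the vesicles that migrating cells leave behind.

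The promoters of 2 of the 3 genes were in the RefSeq promoter table for GRCm38.p6, with 1 window for Usp2 and 2 for Tspan4. Each window runs from 250 bases before an annotated gene start to 50 bases after it. They were searched on both strands for the E-box CACGTG, its variant CACGTT, the D-box TTANGTAA bound by PAR bZIP factors, and AGGTCA, the core of the elements bound by ROR and REV-ERB receptors. The downstream Tspan4 window (chr7:141476130-141476429, plus strand) and the Usp2 window (chr9:44084670-44084969, plus strand) are shown 5′ to 3′ because they are the window with a match and the window of the gene with the smallest p for a rhythm in both genotypes. Capitals mark the E-box.
Tspan4: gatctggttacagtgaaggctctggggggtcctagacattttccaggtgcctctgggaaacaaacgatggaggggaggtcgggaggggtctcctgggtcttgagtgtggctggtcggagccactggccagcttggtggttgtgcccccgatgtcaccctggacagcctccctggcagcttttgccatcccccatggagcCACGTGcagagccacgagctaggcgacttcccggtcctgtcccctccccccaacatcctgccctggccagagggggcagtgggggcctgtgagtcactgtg
Usp2: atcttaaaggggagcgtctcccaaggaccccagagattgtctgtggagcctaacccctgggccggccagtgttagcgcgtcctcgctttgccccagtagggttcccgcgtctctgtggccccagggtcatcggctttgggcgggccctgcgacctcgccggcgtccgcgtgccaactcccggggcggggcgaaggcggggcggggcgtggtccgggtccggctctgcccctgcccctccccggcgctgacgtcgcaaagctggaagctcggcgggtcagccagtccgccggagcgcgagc
The Tspan4 window held 1 CACGTG, whose first base lies 51 bases before the gene start. The upstream Tspan4 window (chr7:141474986-141475285, plus strand) and the Usp2 window held none of the 4 motifs, which describes only these letters in these stretches. CACGTG was present in 7.15% of all 32851 windows, CACGTT in 4.68%, TTANGTAA in 2.32% and AGGTCA in 16.3%. GC content was 63.7% in the downstream Tspan4 window, 68.7% in the upstream one and 71.7% in the Usp2 window, against a median of 52.7% over all windows. Wee1 and Tspan4 lie on chromosome 7 and Usp2 lies on chromosome 9.

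The labels disagree on the tissue: mediobasal hypothalamus stands as the source, and eWAT in the titles and the dissection text. The 10 adipocyte markers had a median signal at the 99.6th percentile of all genes, and the 13 measured markers of hypothalamus and neurons were at the 41.5th percentile. Array medians ran from 7.80 to 7.94 (log2), and correlations between arrays ran from 0.957 to 0.992. Replicates 2 and 3 of CON CT7 and replicate 1 of CON CT13 had the narrowest spread of signals, with an SD of 1.58 to 1.59 (log2) against 1.598 to 1.67 in the other 21 arrays, so the results that rest on CON are also given without these 3. Arntl itself averaged 8.49 ± 0.27, 8.19 ± 0.24, 9.52 ± 0.06 and 9.15 ± 0.21 (log2, SD, n = 3 each) in MUT fat at CT1, 7, 13 and 19. In CON fat it averaged 8.95 ± 0.20, 8.07 ± 0.09, 8.36 ± 0.29 and 9.54 ± 0.09 at the same times (SD, n = 3 each). Arntl was thus read in the fat of both genotypes, and the arrays hold no SCN tissue in which the deletion itself could be checked.

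Usp2 was at the 80.3rd percentile of mean signal, with an average of 9.35 (log2) over all arrays. In MUT fat its signal was 9.18, 9.12 and 9.14 at CT1, 9.53, 9.76 and 9.79 at CT7, 9.32, 9.22 and 9.45 at CT13, and 8.76, 8.84 and 8.91 at CT19 (log2). In CON fat it was 8.91, 8.83 and 8.78 at CT1, 9.53, 9.90 and 9.44 at CT7, 9.88, 10.07 and 9.73 at CT13, and 9.37, 9.47 and 9.47 at CT19. All MUT arrays were highest at CT7 and lowest at CT19, whereas CON arrays were lowest at CT1 and reached their highest value at CT13, where they overlapped with those of CT7. MUT and CON arrays overlapped at CT7 and did not overlap at CT1, CT13 or CT19, and at CT13 and CT19 every MUT array was below every CON array. The share of all tested genes whose MUT and CON arrays did not overlap was 18.9, 25.6, 22.2 and 27.3% at CT1, 7, 13 and 19.

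Wee1 was near the middle of the range, at the 52.2nd percentile with an average of 8.21 (log2). In MUT fat its signal was 8.25, 7.86 and 8.34 at CT1, 8.59, 8.99 and 8.78 at CT7, 8.05, 8.31 and 8.13 at CT13, and 7.99, 8.01 and 7.79 at CT19 (log2). In CON fat it was 7.42, 7.54 and 7.73 at CT1, 8.29, 8.32 and 8.12 at CT7, 8.54, 8.67 and 8.86 at CT13, and 8.23, 7.88 and 8.26 at CT19. The highest MUT arrays were those of CT7 and the highest CON arrays those of CT13, with no overlap with the next group of the same genotype in either case. Every MUT array lay above every CON array at CT1 and CT7, every MUT array lay below every CON array at CT13, and the genotypes overlapped at CT19. Arrays without overlap were found for 18.9, 25.6 and 22.2% of all genes at CT1, 7 and 13.

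Tspan4 had the highest average of the 3, 9.65 (log2), at the 85.5th percentile. In MUT fat its signal was 9.56, 9.59 and 9.54 at CT1, 9.69, 9.77 and 9.67 at CT7, 9.39, 9.79 and 9.50 at CT13, and 9.66, 9.59 and 9.43 at CT19 (log2). In CON fat it was 9.19, 9.36 and 9.30 at CT1, 9.83, 9.77 and 9.84 at CT7, 9.93, 9.97 and 10.32 at CT13, and 9.66, 9.56 and 9.63 at CT19. The MUT arrays of all 4 times lay within one band, and those of CT13 spanned both its lowest and its highest value. The CON arrays formed a wave with CT1 at the bottom and CT13 at the top, with no array shared between the ranges of the 4 times. MUT arrays lay above CON arrays at CT1 and below them at CT7 and CT13, at CT7 by a gap smaller than the rounding of these values, and the genotypes overlapped at CT19. The shares of all genes without overlap at CT1, 7 and 13 were the 18.9, 25.6 and 22.2% given above.

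**Figure D1:**
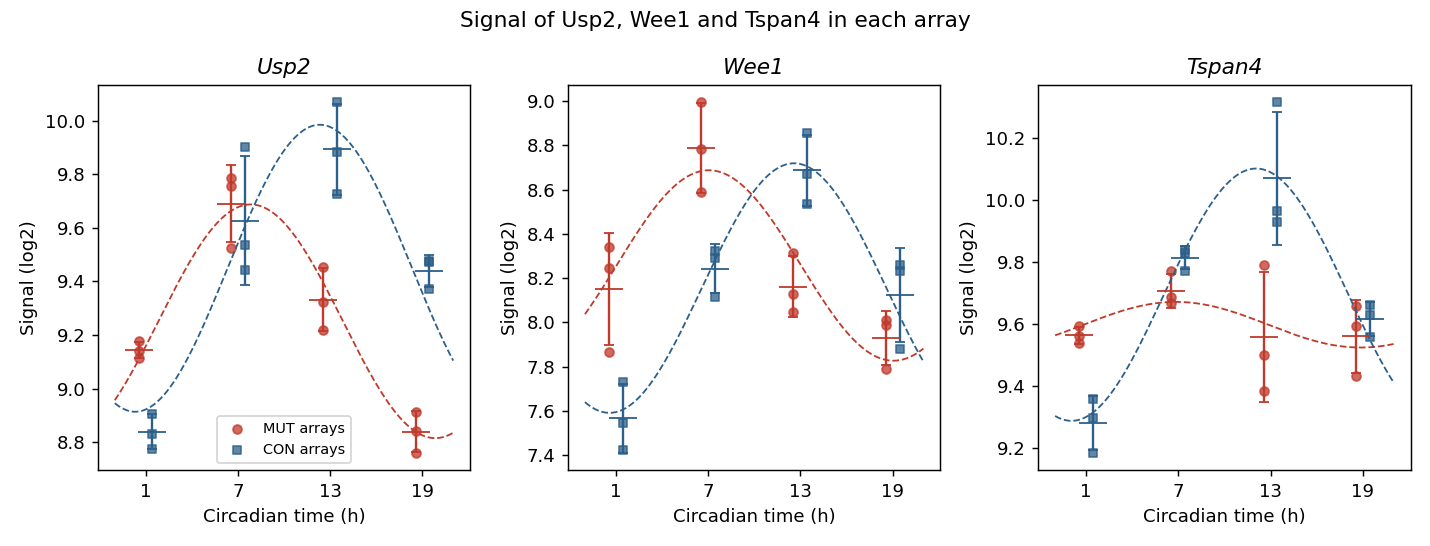
Log2 signal of Usp2, Wee1 and Tspan4 (y axis) against circadian time in h (x axis) in each array, with MUT as circles drawn left of CON squares. Bars are group means with SD (n = 3 each) and dashed lines the fitted 24-h cosines, which crest near CT7 to CT8 in MUT and near CT12 to CT13 in CON for Usp2 and Wee1, while the MUT curve of Tspan4 is nearly flat.

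The size of a rhythm was the log2 peak-to-trough of a 24-h cosine fitted to the 4 group means of a genotype, with SE from limma's model over all 24 arrays. In MUT fat, Usp2 and Wee1 passed limma's test for a 24-h rhythm (Benjamini-Hochberg adjusted p under 0.05 over all genes) and Tspan4 did not, where 0.348% of the 15526 genes passed. Usp2 had a size of 0.87 ± 0.10, a 1.83-fold swing, with its peak at CT7.83 ± 0.44 h (limma, adjusted p = 0.000189). Wee1 had a size of 0.86 ± 0.13, a 1.82-fold swing, with its peak at CT7.05 ± 0.57 h (limma, adjusted p = 0.00438). By p-value Usp2 ranked 5th and Wee1 15th among all genes for a rhythm in MUT. Tspan4 had a size of 0.15 ± 0.10 in MUT (limma, adjusted p = 0.653), with a 95% interval of −0.05 to 0.34, whose upper end is a 1.27-fold swing. A size cannot fall below 0, so this interval is only approximate and sets no firm upper limit. With the mesothelium marker score of each array as a covariate, the Tspan4 size in MUT was 0.35 ± 0.09 (limma, adjusted p = 0.273).

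In CON fat all 3 genes passed the test for a 24-h rhythm, where 17.1% of all genes passed. Wee1 had the largest size, 1.13 ± 0.13 or 2.19-fold, with its peak at CT12.6 ± 0.43 h (limma, adjusted p = 2.76e-05). Usp2 had a size of 1.07 ± 0.10 or 2.10-fold and a peak at CT12.3 ± 0.36 h (limma, adjusted p = 2.41e-06). Tspan4 had a size of 0.81 ± 0.10 or 1.76-fold and a peak at CT12.1 ± 0.45 h (limma, adjusted p = 3.58e-05). The 3 peaks thus fell within 1 h of each other, between CT12.1 and CT12.6 as the labels count CT. The median size over all genes was 0.13 in MUT and 0.18 in CON. Without the 3 arrays of narrow spread the CON sizes were 1.06 ± 0.10 for Usp2, 1.21 ± 0.15 for Wee1 and 0.89 ± 0.11 for Tspan4, and all 3 still passed. In bulk tissue a lower signal can come from less RNA per cell or from fewer cells of a type, and these cannot be told apart here.

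The rhythms of all 3 genes differed between MUT and CON by the test of the difference itself, where 1.44% of all genes passed. The peak-to-trough of the difference between the 2 curves was 1.09 ± 0.14 for Usp2 (limma, adjusted p = 0.000679), 1.34 ± 0.18 for Wee1 (adjusted p = 0.000972) and 0.80 ± 0.13 for Tspan4 (adjusted p = 0.00769). Usp2 and Wee1 peaked earlier in MUT, with a shift, MUT minus CON, of −4.50 ± 0.57 h for Usp2 (95% interval −5.67 to −3.32 h) and −5.54 ± 0.72 h for Wee1 (−7.03 to −4.06 h). The sizes of these 2 rhythms in MUT were 81.4% of CON for Usp2 and 76.3% for Wee1, and the differences in size, −0.20 ± 0.14 and −0.27 ± 0.18, had 95% intervals that included 0 (−0.49 to 0.09 and −0.64 to 0.11). For Tspan4 the size in MUT was 18.1% of CON, a difference of −0.67 ± 0.13 with a 95% interval of −0.95 to −0.39. That share was 10.1% without MUT CT19 replicate 3 and 24.1% without MUT CT19 replicate 1, the ends of its range without single arrays, and 42.4% with the mesothelium score as a covariate. A difference between genotypes was thus resolved in the time of the peak for Usp2 and Wee1, and in the size of the swing for Tspan4. The intervals of Usp2 and Wee1 leave room for smaller swings in MUT. The fitted peak of Tspan4 shifted by −5.21 ± 2.51 h (95% interval −10.4 to −0.02 h), but Tspan4 had no called rhythm in MUT. Without the 3 arrays of narrow spread the 3 differences were 1.15, 1.37 and 0.87, and all passed.

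Time points within a genotype were then compared pair by pair with limma. In MUT fat, CT19 minus CT7 was −0.85 ± 0.10 for Usp2 (adjusted p = 0.000187) and −0.86 ± 0.13 for Wee1 (adjusted p = 0.00132), where 0.831% of genes differed between these times. Usp2 had the smallest p of all genes for this pair. None of the 6 pairs was called for Tspan4 in MUT, where the share of genes called per pair was 0, 0.0515, 0.0644, 0.161, 0.831 or 0.258%. In CON fat, CT13 was above CT1 by 1.05 ± 0.10 for Usp2 (adjusted p = 2.64e-06), 1.12 ± 0.13 for Wee1 (adjusted p = 4.13e-05) and 0.79 ± 0.10 for Tspan4 (adjusted p = 6.76e-05), where 7.10% of genes differed. These 5 differences passed also without any 1 array. Usp2 in CON was also above its CT1 level at CT7, by 0.79 ± 0.10 (adjusted p = 0.000144), and at CT19, by 0.60 ± 0.10 (adjusted p = 0.00404), where 1.23 and 1.86% of genes differed, and both differences passed without any 1 array. CT7 was above CT1 in CON by 0.68 ± 0.13 for Wee1 and 0.53 ± 0.10 for Tspan4 (adjusted p = 0.00940 and 0.00587), and neither passed without the 3 arrays of narrow spread (adjusted p = 0.201 and 0.176) or without CON CT1 replicate 1 (0.0842 and 0.0582), nor Wee1 without CON CT7 replicate 2 (0.0551). The same pair, CT13 minus CT1, came to 0.19 ± 0.10, 0.01 ± 0.13 and −0.01 ± 0.10 in MUT for Usp2, Wee1 and Tspan4, and none passed (adjusted p = 0.572, 0.985 and 0.990), where 0.0515% of genes did. Neither genotype nor their difference showed a called alternation between CT7 with CT19 and CT1 with CT13, the part of the 4 means that a 24-h cosine leaves, where 0.0451% of genes were called in MUT, 0.0258% in CON and 0.0451% for the difference.

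The comparison of MUT with CON at single times asks at which hours the genes differ in level. At CT1 every MUT array was above every CON array for all 3 genes, Usp2 by 0.31 ± 0.10, Wee1 by 0.58 ± 0.13 and Tspan4 by 0.28 ± 0.10 (log2), but none passed the test across genes (limma, adjusted p = 0.214, 0.0731 and 0.223), and 0.0451% of all genes did. For 18.9% of all genes the MUT and CON arrays did not overlap at CT1, in either direction. At CT7 Wee1 was 1.46-fold higher in MUT, by 0.55 ± 0.13 (limma, adjusted p = 0.0183), where 4.05% of genes passed. Usp2 differed there by 0.06 ± 0.10 (95% interval −0.14 to 0.27) and Tspan4 by −0.11 ± 0.10 (−0.30 to 0.09). The call for Wee1 was lost without CON CT7 replicate 3 (adjusted p = 0.0942), MUT CT7 replicate 2 (0.114) or MUT CT7 replicate 3 (0.0615), and without the 3 arrays of narrow spread (0.256).

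At CT13 Usp2 fell to 9.33 ± 0.12 in MUT, against 9.89 ± 0.17 in CON (log2, SD, n = 3 each), a difference of −0.56 ± 0.10 or 1.47-fold (limma, adjusted p = 0.0180). Tspan4 fell to 9.56 ± 0.21 in MUT, against 10.07 ± 0.21 in CON (SD, n = 3 each), a difference of −0.51 ± 0.10 or 1.43-fold (limma, adjusted p = 0.0184). Wee1 differed by −0.53 ± 0.13 or 1.44-fold and did not pass (adjusted p = 0.0754), with every MUT array below every CON array. Of all genes 0.322% passed at CT13, and for 22.2% the MUT and CON arrays did not overlap there, in either direction. The difference of Usp2 missed the threshold without CON CT13 replicate 1 (adjusted p = 0.0748) or replicate 2 (0.0523), and that of Tspan4 without MUT CT13 replicate 1 (0.0519) or replicate 3 (0.164). Without the 3 arrays of narrow spread the values were −0.56 for Usp2 (adjusted p = 0.0544) and −0.58 for Tspan4 (adjusted p = 0.0854).

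At CT19 Usp2 was the only one of the 3 that passed, where 2.74% of genes passed. It fell to 8.84 ± 0.08 in MUT, against 9.44 ± 0.06 in CON (SD, n = 3 each), a difference of −0.60 ± 0.10 or 1.52-fold (limma, adjusted p = 0.00266), and passed also without any 1 array and without the 3 arrays of narrow spread. Wee1 differed by −0.20 ± 0.13 (adjusted p = 0.370; 95% interval −0.46 to 0.07) and Tspan4 by −0.06 ± 0.10 (adjusted p = 0.754; −0.25 to 0.14).

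**Figure D2:**
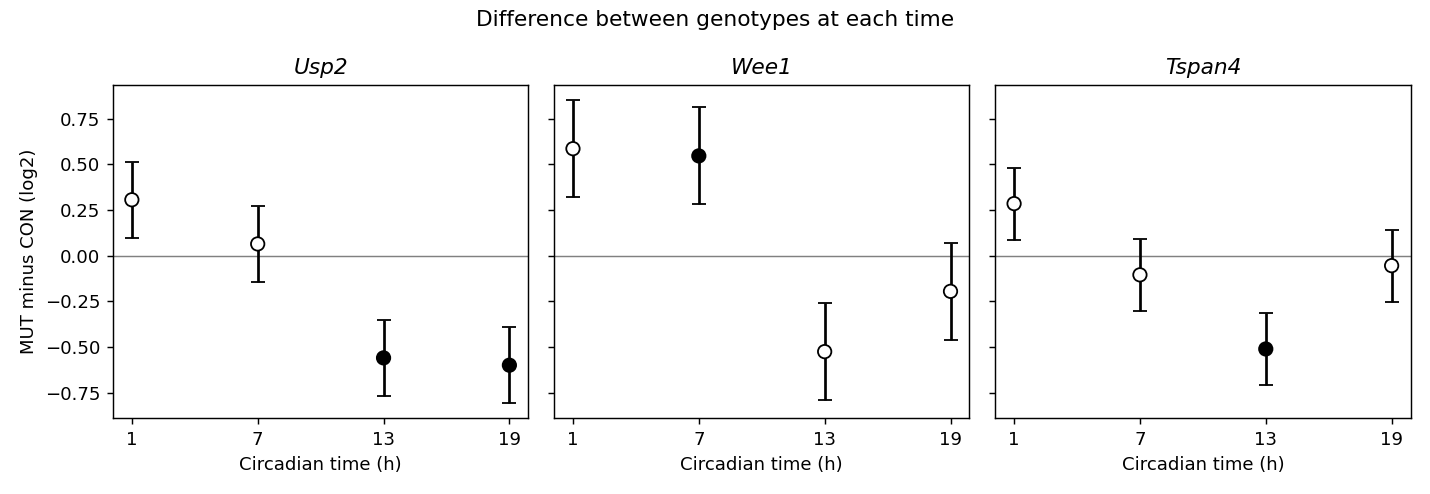
Difference in log2 signal, MUT minus CON (y axis), of the 3 genes at each circadian time in h (x axis), with 95% intervals from limma's model over 3 arrays per group. Filled points passed at an adjusted p under 0.05, which were Wee1 at CT7, Usp2 and Tspan4 at CT13, and Usp2 at CT19.

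Averaged over the 4 times, Usp2 was lower in MUT, with a difference of −0.20 ± 0.05 (log2; limma, adjusted p = 0.0108), where 9.42% of all genes were called lower. Its call was lost with the mesothelium score as a covariate (adjusted p = 0.0665) and without the 3 arrays of narrow spread (adjusted p = 0.0611). The daily mean of Wee1 differed by 0.10 ± 0.06 (adjusted p = 0.242; 95% interval −0.03 to 0.24) and that of Tspan4 by −0.10 ± 0.05 (adjusted p = 0.137; −0.20 to 0.00). Tspan4 passed without MUT CT13 replicate 2 (adjusted p = 0.0451), after quantile normalization (0.0300) and with the mesothelium score (0.0250).

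Ordered by mean signal over the 8 groups, Usp2 was highest in CON at CT13, followed by MUT at CT7 and CON at CT7, and these neighbours overlapped. The 2 lowest groups of Usp2, MUT at CT19 and CON at CT1, both averaged 8.84 (log2). Wee1 was highest in MUT at CT7 and next in CON at CT13, which overlapped, and the step from there to CON at CT7, 0.44, was without overlap. The middle of its order, from CON at CT7 through MUT at CT13, MUT at CT1 and CON at CT19 to MUT at CT19, was a run of overlapping neighbours. CON at CT1 stood below it, by 0.36 with no overlap. Tspan4 had the 2 highest groups in CON at CT13 and CT7 and the lowest in CON at CT1, with all 4 MUT groups and CON at CT19 between them, and MUT at CT1, CT19 and CT13 averaged 9.57 ± 0.03, 9.56 ± 0.12 and 9.56 ± 0.21 (SD, n = 3 each).

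Whether the genes followed different time courses within a genotype was tested on the difference of their log2 signals in each array, by an exact permutation of the 12 arrays over the 4 times (369600 assignments), with p adjusted over the 6 pairs tested. In MUT the difference of Usp2 and Tspan4 had a 24-h size of 0.73 (exact permutation, adjusted p = 0.0166) and that of Wee1 and Tspan4 a size of 0.71 (adjusted p = 0.0138), whereas the difference of Usp2 and Wee1 had a size of 0.18 (adjusted p = 0.729). In CON the sizes were 0.26 (adjusted p = 0.642), 0.34 (adjusted p = 0.0774) and 0.10 (adjusted p = 0.880) for the same pairs. In MUT, Tspan4 thus differed from Usp2 and Wee1 in its 24-h course, and no such difference between Usp2 and Wee1 was detected in either genotype. A smaller swing with the same peak time would also pass this test, so it does not separate size from timing. The pairs were tested after the members' values were seen. The first of these calls was lost without MUT CT1 replicate 1, 2 or 3 or without MUT CT13 replicate 1 or 3, and the second without MUT CT1 replicate 1 or 3 or MUT CT13 replicate 1 or 3, with an adjusted p of at most 0.0667. In CON the difference of Wee1 and Tspan4 passed without CON CT1 replicate 3 (exact permutation, adjusted p = 0.0194) or CON CT19 replicate 2 (0.0449). Over the 12 arrays of each genotype, which share their times of day, the correlation of Usp2 with Wee1 was 0.84 in MUT and 0.88 in CON, that of Usp2 with Tspan4 0.32 in MUT and 0.83 in CON, and that of Wee1 with Tspan4 0.63 in MUT and 0.95 in CON.

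The 3 genes were set beside 17 other tested clock genes, of which 10 passed for a 24-h rhythm in MUT, 14 in CON and 12 for the difference, beside 0.348, 17.1 and 1.44% of all genes. Among the outputs in that group, the PAR bZIP activators Dbp and Tef had sizes of 1.21 ± 0.17 and 0.96 ± 0.11 in MUT and 2.21 ± 0.17 and 1.04 ± 0.11 in CON. Nfil3, the repressor that binds the same D-box, had sizes of 0.63 ± 0.10 in MUT and 0.97 ± 0.10 in CON. Dbp, Tef and Nfil3 passed in both genotypes, Nfil3 in MUT not without MUT CT1 replicate 3 (limma, adjusted p = 0.0524). Hlf, the third PAR bZIP gene, had sizes of 0.30 ± 0.08 in MUT (adjusted p = 0.138) and 0.46 ± 0.08 in CON (adjusted p = 0.00163). The difference of Hlf between genotypes did not pass (0.29 ± 0.11, adjusted p = 0.331). That of Clock passed narrowly (0.55 ± 0.12, limma, adjusted p = 0.0474). It was lost at equal array medians (0.0597), without the 3 arrays of narrow spread (0.145) and without most single arrays, such as CON CT1 replicate 1 (0.0921). Like Tspan4, Hlf, Cry1, Ciart and Bhlhe40 passed in CON and not in MUT, a likeness in the calls only. In MUT, 8 of the 9 tested clock repressors and 4 of the 4 other outputs had an unadjusted p under 0.05 (limma), against 0.320 for Tspan4. Over the 10 clock genes that passed in both genotypes the peak shift, MUT minus CON, ran from −5.71 to −2.36 h with a median of −4.37 h, and their size in MUT was a median of 66.2% of CON (54.6 to 92.4%). The upper end of the shifts was that of Clock, whose call in MUT was lost without MUT CT7 replicate 1 (adjusted p = 0.102), without MUT CT19 replicate 1 (0.0630) and with the mesothelium score (0.0877), and without Clock the shifts ran from −5.71 to −3.71 h. The shifts of Usp2 and Wee1 lie inside both ranges, as do their 81.4% and 76.3% in the range of sizes. These 10 genes were those that passed in MUT, which leaves out damped rhythms, so Tspan4 is set beside the 4 that passed in CON and not in MUT. Their size in MUT was 27.8% of CON for Ciart, 46.5% for Bhlhe40, 64.6% for Hlf and 72.1% for Cry1, beside 18.1% for Tspan4. The shares of Hlf and Cry1 lie inside the range of the 10 genes that passed in both, and neither gene passed for the difference.

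Measured from the peak of Arntl in the same genotype, Usp2 peaked 15.9 ± 0.59 h later in MUT and 15.9 ± 0.50 h later in CON, a difference of 0.07 ± 0.77 h. Wee1 peaked 15.2 ± 0.69 h after Arntl in MUT and 16.1 ± 0.56 h in CON, a difference of −0.97 ± 0.89 h. Both differences were smaller than 2 SE. Behind Dbp, the lag of Usp2 was 4.05 ± 0.69 h in MUT and 4.28 ± 0.46 h in CON, and that of Wee1 3.26 ± 0.78 h in MUT and 4.55 ± 0.52 h in CON. Usp2 and Wee1 thus followed the activator and the output gene in the same order in both genotypes. These SE combine the errors of the genes as if they were independent, and no lag is given for Tspan4, which had no called peak in MUT.

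**Figure D3:**
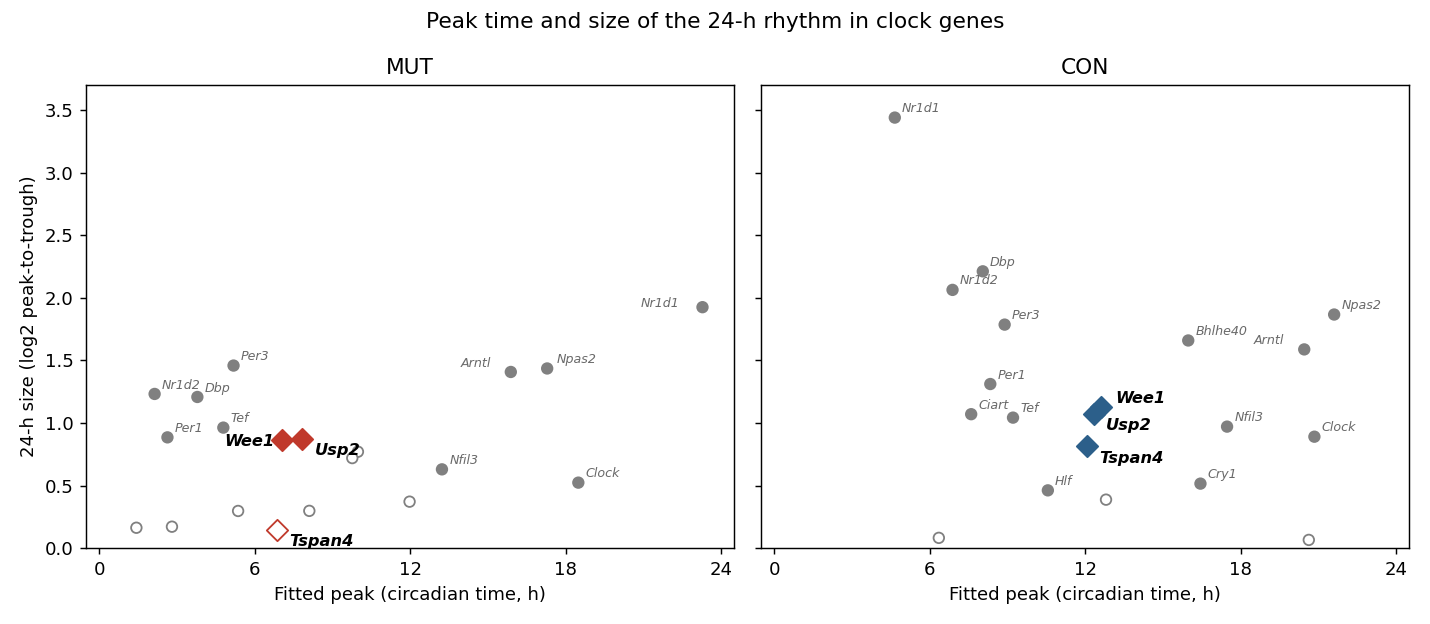
Size of the fitted 24-h rhythm (y axis, log2 peak-to-trough) against its peak (x axis, circadian time in h) in MUT and CON fat, with Usp2, Wee1 and Tspan4 as diamonds and 17 other clock genes as circles. Filled symbols passed at an adjusted p under 0.05. The diamonds of all 3 genes lie close together near CT12 in CON, whereas in MUT Usp2 and Wee1 stay together near CT7 to CT8 and Tspan4 is an open symbol near 0.

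Each gene was then set beside relatives. Of 45 tested ubiquitin-specific proteases, 1 passed for a rhythm in MUT, where 0.348% of all genes passed, and 14 passed in CON (31.1%, beside 17.1% of all genes). The 1 in MUT was Usp2, under every alternative run. Usp2 had the largest size of the family in both genotypes, where the largest among the others was 0.26 in MUT and 0.59 in CON. The other members with the smallest p in CON were Usp49 (0.59 ± 0.10, peak CT3.42), Usp3 (0.35 ± 0.06, CT2.17) and Usp33 (0.43 ± 0.08, CT3.29). The median size of the other 44 was 0.12 in MUT and 0.21 in CON, beside 0.13 and 0.18 over all genes. None of the 13 other called proteases peaked within 3 h of Usp2 in CON, but the share of all called genes that peaked in that window was not counted. Without the 3 arrays of narrow spread, 6 of the family passed in CON, where 6.51% of all genes did, against 17.1% with them. For the difference between genotypes, Usp2 and Usp3 passed, where 1.44% of all genes passed. Usp3 passed narrowly (0.38 ± 0.08, limma, adjusted p = 0.0472) and not when any 1 of 20 of the 24 arrays was left out.

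Of 7 genes whose proteins are reported USP2 substrates, 1 passed for a rhythm in MUT and 3 in CON, beside 0.348% and 17.1% of all genes. Per1 had a size of 0.89 ± 0.14 with its peak at CT2.63 in MUT (limma, adjusted p = 0.00902, and 0.0558 in a fit of the MUT arrays alone) and 1.31 ± 0.14 at CT8.34 in CON, so its RNA crested before that of Usp2 in both genotypes. Cry1, which encodes a clock repressor, passed in CON only, with 0.52 ± 0.09 at CT16.4, against 0.37 ± 0.09 in MUT (adjusted p = 0.108). Its call in CON was lost without the 3 arrays of narrow spread (adjusted p = 0.0568), and its test of the difference did not pass (0.51 ± 0.13, adjusted p = 0.0893). Mdm2, which encodes the ubiquitin ligase of p53, had 0.39 ± 0.09 in CON and lost its call without the 3 arrays of narrow spread (adjusted p = 0.608), without CON CT7 replicate 2 (0.0856) or 3 (0.0592), without CON CT19 replicate 2 (0.0531) and with the mesothelium score (0.134). Fasn, the fatty acid synthase, had a size of 0.32 ± 0.16 in MUT (adjusted p = 0.520).

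Among 12 tested genes of mitotic entry control, 2 passed for a rhythm in MUT and 3 in CON, beside 0.348% and 17.1% of all genes. Wee1 was the 1 of them that passed for the difference, where 1.44% of all genes passed. Cdkn1a, which encodes the kinase inhibitor p21, was larger than Wee1 in CON, with a size of 1.70 ± 0.16 and a peak at CT19.7 (limma, adjusted p = 2.65e-06). In MUT Cdkn1a had a size of 0.88 ± 0.16 (adjusted p = 0.0303), a call that was lost without any of 4 single MUT arrays (adjusted p = 0.0721 to 0.149) and with the mesothelium score (0.125), and its difference did not pass (adjusted p = 0.0657). Cdc25b, a phosphatase that opposes WEE1 at CDK1, had a size of 0.23 ± 0.09 in MUT (adjusted p = 0.321) and 0.31 ± 0.09 with its peak at CT6.86 in CON (adjusted p = 0.0369), a call lost without any of 5 single CON arrays (0.0505 to 0.149) and with the mesothelium score (0.349). The median size of the 11 genes other than Wee1 was 0.12 in MUT and 0.18 in CON. The CDK1 gene itself was under the signal filter, and Ccnb1, its cyclin, had no probe set of its own here.

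Of 27 tested tetraspanins, 0 passed for a rhythm in MUT by limma, with 7 at an unadjusted p under 0.05, where 0.348% of all genes passed. In CON 7 passed (25.9%, beside 17.1% of all genes). Tspan4 was the 1 that passed for the difference, where 1.44% of all genes passed. Tspan5 narrowly missed that threshold (0.43 ± 0.10, limma, adjusted p = 0.0510). The count for the difference was 2 with the mesothelium score and ran from 1 to 2 with single arrays left out. Array weights raised the count of rhythms in MUT to 2. The median size of the 26 tetraspanins other than Tspan4 was 0.14 in MUT and 0.23 in CON. Tspan4 had the smallest p of the family in CON and the second largest size, after Upk1b, a uroplakin made by mesothelium, with 1.21 ± 0.25 and its peak at CT18.2. Tspan5 had 0.42 ± 0.07 at CT19.4 and Tspan18 0.72 ± 0.15 at CT23.6. None of the 6 other called tetraspanins peaked within 3 h of Tspan4, but the share of all called genes in that window was not counted. Without the 3 arrays of narrow spread, 1 of the 27 passed in CON, beside 6.51% of all genes, and the calls of Upk1b (adjusted p = 0.0807), Tspan5 (0.0926) and Tspan18 (0.0672) were lost, that of Upk1b also with the mesothelium score (0.19, adjusted p = 0.158). In MUT, Tspan4 was the 14th of the 27 by size, against the 2nd in CON.

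**Figure D4:**
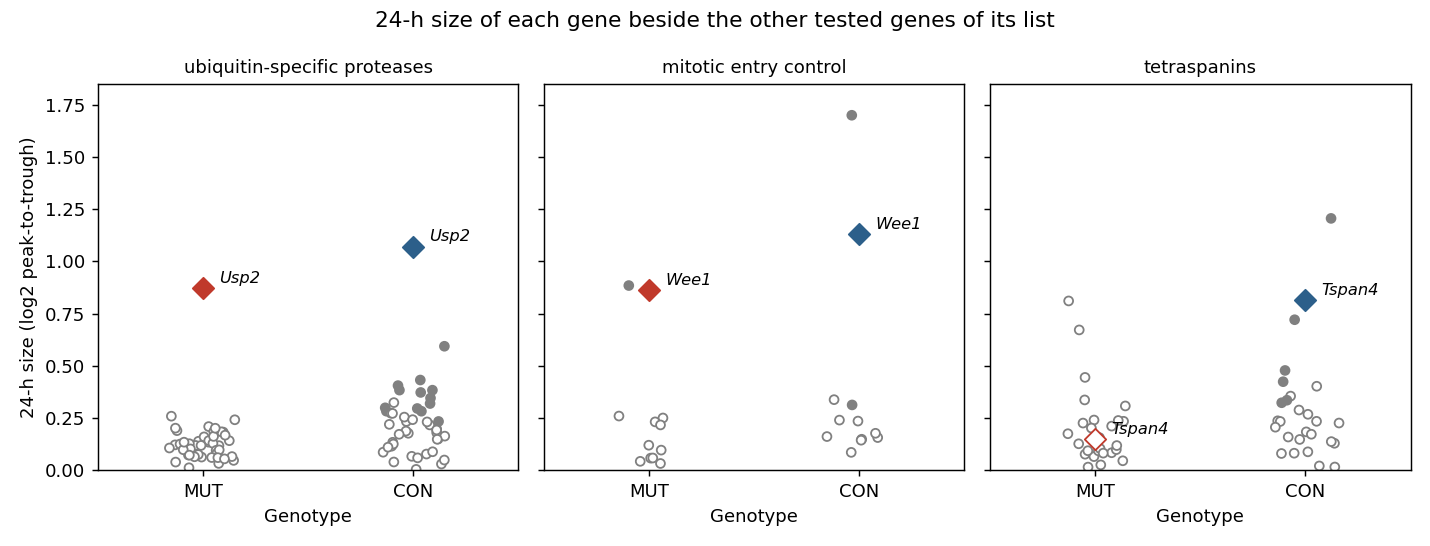
Size of the fitted 24-h rhythm (y axis, log2 peak-to-trough) in MUT and CON fat (x axis) for Usp2, Wee1 and Tspan4 as diamonds beside the other tested genes of their lists as circles, with filled symbols for an adjusted p under 0.05. Usp2 stands above its family in both genotypes, and Tspan4 stands near the top in CON and inside the cloud in MUT.

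The genes with the most similar signal over the 24 arrays were taken by Pearson's correlation, as a description over arrays that share their times and genotypes. For Usp2 these were Wee1 (0.79), Cldn12 (0.79), Hlf (0.78), Map2k3 (0.78) and Nrg4 (0.77). For Wee1 they were Map2k3 (0.87), Gm14488 (0.81), Usp2 (0.79), Marveld1 (0.79) and Tspan4 (0.77). For Tspan4 they were Maco1 (0.80), Il6ra (0.80), Wee1 (0.77), Gbp2b (0.77) and Tead1 (0.77). Usp2 and Wee1 thus stood in each other's lists, as did Wee1 and Tspan4, while Tspan4 ranked 31st for Usp2 (0.70). Over the 8 group means the correlations were 0.99 for Tspan4 with Il6ra, which encodes the interleukin-6 receptor, 0.95 for Wee1 with Gm14488 and 0.93 for Usp2 with Hlf. When single arrays were left out, 2 to 5 of the 5 genes stayed for Usp2 and Tspan4 and 4 to 5 for Wee1.

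In gene order on GRCm38.p6, the nearest tested neighbours were Thy1 and Rnf26 for Usp2, Ipo7 and Swap70 for Wee1, and Polr2l and Chid1 for Tspan4. None of these 6 passed for a 24-h rhythm in MUT or in CON (limma, lowest adjusted p = 0.498 and 0.0858), where 0.348% and 17.1% of all genes passed. A count of 0 among 6 genes is too small to set beside these shares. Swap70 had a higher daily mean in MUT, by 0.18 (adjusted p = 0.0183). Wee1 lies 17 protein-coding genes from Arntl, the gene deleted by the flox allele, and Tspan4 361 away on the same chromosome. All 17 were tested, and in the daily mean 5 were called higher and 0 lower in MUT, beside 12.3% and 9.42% of all genes. Of the 275 tested between Tspan4 and Arntl, 27 were called higher and 36 lower.

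Markers of other cells in the fat pad also varied over the day. The 8 mesothelium markers had a summed linear signal of 3343 to 9684 over MUT arrays and 3066 to 6913 over CON arrays, and 0 of the 8 passed limma's test for a rhythm in MUT and 7 in CON. At an unadjusted p under 0.05 there were 7 in MUT, and without the 3 arrays of narrow spread 1 passed in CON. Their score, the median centred log2 signal, was 0.00 ± 0.16, −0.19 ± 0.36, 0.25 ± 0.56 and 0.44 ± 0.25 in MUT at CT1, 7, 13 and 19 and −0.24 ± 0.24, −0.65 ± 0.04, 0.10 ± 0.30 and 0.25 ± 0.12 in CON (SD, n = 3 each). With this score as a covariate the sizes were 0.83 for Usp2 and 0.997 for Wee1 in MUT and 1.09 for Usp2, 1.09 for Wee1 and 0.83 for Tspan4 in CON, and all 5 still passed. The differences between genotypes were then 1.11, 1.29 and 0.78 for Usp2, Wee1 and Tspan4, and all 3 passed (limma, adjusted p = 0.000505, 0.000662 and 0.000547). None of the 10 adipocyte markers passed in MUT, with 0 at an unadjusted p under 0.05, and 2 passed in CON for a rhythm, with a median size of 0.10 in MUT and 0.13 in CON. Lep, which encodes leptin, was far from these medians in CON, with a size of 1.38 ± 0.14 (limma, adjusted p = 5.31e-06), against 0.19 ± 0.14 in MUT (0.711). It was the 1 adipocyte marker called for the difference (1.51 ± 0.20, limma, adjusted p = 0.000679), where 1.44% of all genes passed. Of the other marker lists, none had a member that passed limma's test in MUT, where 5 of 7 macrophage and 5 of 7 fibroblast and preadipocyte markers and 0 of the others had an unadjusted p under 0.05. In CON 3 of 7 macrophage, 3 of 7 endothelium, 4 of 7 fibroblast and preadipocyte, 1 of 4 skeletal muscle, 0 of 8 hypothalamus and neuron and 0 of 2 epididymis markers passed, with 0 macrophage markers without the 3 arrays of narrow spread. Of all genes 0.348% passed in MUT and 17.1% in CON, and 6.51% in CON without those 3 arrays. The part of these cells in the rhythms of the 3 genes was not tested beyond the mesothelium score.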

How the data were processed

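RNA from eWAT of 24 mice was read on Affymetrix GeneChip arrays after Trizol isolation and biotin labelling, per the labels' protocols. The authors' deposited values are log2 signals, 1 per probe set; RMA and Affymetrix Expression Console are named for them, per the submitters' processing notes, without version, setting or genome build. Of 34390 probe sets, 23521 carried 1 gene symbol, 1814 several and 9055 none. Each gene was represented by its brightest single-symbol probe set, and the dimmest 30% of genes (mean log2 signal under 7.42) were dropped. Symbols came from the platform table, updated by Entrez identifier to GRCm38.p6, where 193 found no match.

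A cell-means model over 8 groups with 16 residual degrees of freedom was fitted in R 4.3.3 with limma 3.58.1. A rhythm was a moderated F test on the cosine and sine of 24 h together (2 df), and differences were assessed with moderated two-sided tests, with Benjamini-Hochberg adjustment over 15526 genes. Errors are SE of this model unless given as SD, and intervals are 95%. The number of arrays and the signal over background limit the precision. The members, lists, tests and most alternatives were chosen with earlier results of these data known, and the tests of gene pairs by exact permutation after the members' values were seen. Lists were those of clock genes, ubiquitin-specific proteases, USP2 substrates, mitotic entry control and tetraspanins, plus markers of 8 cell types. The text names the members, up to 4 genes per list and comparison with the smallest p, and the 5 most alike genes. Fasn, the CDK1 gene, Ccnb1 and the neighbours in gene order were named for their role or place. Lep was named as the adipocyte marker called for the difference. In simulated data with 200 of 15526 genes changed, 1.5-fold rhythms were recovered in 91.0% (MUT), 97.0% (CON) and 64.2% (difference) of cases, with 0, 6 and 3 false calls. The simulated noise was independent between genes and arrays, so these figures do not cover effects that many genes of an array share. Figures used Python 3.11.15 and matplotlib 3.10.9. Alternatives covered normalization, filters, choice of probe sets, variance model, the replicate letters as a block, array subsets, an F test without a cosine and the mesothelium score. The 3 arrays of narrow spread were left out as an alternative chosen after seeing the data.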

Additional observations from a re-analysis of the deposited data

Results flagged for a closer look

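The 24-h rhythms of Usp2, Wee1 and Tspan4 each differed between MUT and CON by the test of the difference itself. The peak-to-trough of the difference between the curves was 1.09 for Usp2, 1.34 for Wee1 and 0.80 for Tspan4 (log2; limma, adjusted p = 0.000679, 0.000972 and 0.00769). For Usp2 and Wee1 the peak shifts, MUT minus CON, were −4.50 and −5.54 h, and for Tspan4 the size fell to 0.15 in MUT, against 0.81 in CON. Single groups hold 3 arrays, too few for the test for outlying arrays.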

How the results depend on the processing

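All 327 values of the rhythms of Usp2, Wee1 and Tspan4 in MUT, in CON and for their difference kept their side of the threshold. They cover every alternative that gave a value and each array left out. A size has no sign, and peak times were not compared across the alternatives. Wee1 has no value under the filter at the 60th percentile. Of 532 values of the daily mean and of single times, 507 kept their direction and their side of the threshold. Quantile normalization gave a called daily mean for Tspan4 (−0.15). With all probe sets tested, Usp2 (−0.56, adjusted p = 0.0508) and Tspan4 (−0.51, 0.0552) missed the threshold at CT13, as they did in fits of 1 time alone (−0.56 with 0.299 and −0.51 with 0.350). Array weights gave a called difference for Wee1 at CT1 (0.56). With the mesothelium score as a covariate, Usp2 lost its daily mean (−0.18), Tspan4 gained one (−0.18), and Wee1 lost CT7 (0.45) and gained CT13 (−0.56). Without the 3 arrays of narrow spread, calls were lost for Usp2 in the daily mean (−0.18) and at CT13 (−0.56), for Wee1 at CT7 (0.50) and for Tspan4 at CT13 (−0.58). The cause was not tested. Uncalled time differences of Tspan4 in MUT changed sign: CT13 minus CT1 was 0.0172 and CT19 minus CT13 −0.0345 after quantile normalization, CT19 minus CT1 was 0.0164 at equal array medians and 0.0378 with array weights, and CT19 minus CT13 was −0.0568 with the mesothelium score, which also gave −0.0412 for Wee1 in CT13 minus CT1 and −0.00818 for the Tspan4 difference in 12-h alternation. With each array left out, the daily mean of Tspan4 ran from −0.13 to −0.0663. Differences at CT1 ran from 0.49 to 0.73 for Wee1, at CT7 from −0.0273 to 0.20 for Usp2 and 0.44 to 0.65 for Wee1, at CT13 from −0.64 to −0.47 for Usp2 and −0.63 to −0.39 for Tspan4, and at CT19 from −0.10 to 0.00979 for Tspan4. The signs turned without CON CT7 replicate 3 for Usp2 and without MUT CT19 replicate 3 for Tspan4, and Wee1 passed at CT1 without MUT CT1 replicate 2. The time courses of gene pairs ran from 0.65 to 0.83 (Usp2 and Tspan4) and 0.64 to 0.80 (Wee1 and Tspan4) in MUT and 0.29 to 0.41 (Wee1 and Tspan4) in CON. Among uncalled time differences that changed sign, MUT CT13 minus CT1 ran from −0.13 to 0.11 for Wee1 and −0.12 to 0.0811 for Tspan4, CT19 minus CT1 from −0.0524 to 0.0617 and CT19 minus CT13 from −0.0844 to 0.12 for Tspan4, and CON CT19 minus CT7 from −0.19 to 0.00181 for Wee1. The alternation ran from −0.00183 to 0.0672 for Usp2 in MUT and −0.0282 to 0.0913 for its genotype difference in Tspan4. Over the alternatives other than single arrays, genes called numbered 19 to 555 for rhythms in MUT (54 as reported), 1011 to 4194 in CON (2650), 151 to 737 for the difference (223), 296 to 5107 for the daily mean (3365), 3 to 80 at CT1 (7), 49 to 2727 at CT7 (629), 0 to 236 at CT13 (50) and 187 to 1642 at CT19 (425). Of these, the 0 at CT13 came from limma without the 3 arrays of narrow spread, where 1367 genes had an unadjusted p under 0.05. The replicate letters of the titles did not pair the arrays, since 0 of 28 pairs of groups had all correlations of deviations over 0.1 (median −0.02). With the letters as a replicate block, the difference in rhythm was 1.09 for Usp2 (adjusted p = 0.00128), 1.34 for Wee1 (0.00215) and 0.80 for Tspan4 (0.0127), no call of a member in a rhythm, daily mean or single time changed, and 3 genes were called at CT1, against 7. The 4 times of day and 3 arrays per group limit the peak times, and array signals near background limit dim genes.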
